A study of Mus musculus with 18 samples.

Results

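Ribosome biogenesis genes were followed through steady-state and stress erythroid progenitors of the mouse. The set held 41 genes, taken by symbol from the count tables: 40 matched directly, and Utp4 matched by its accession under an older symbol. These are 41 of the 24072 gene rows of the spleen count table, and all 41 were tested in both count tables. RNA was sequenced from 4 sorted populations of the strain B6SJL, with 3 libraries each. One was burst-forming erythroid progenitors (BFU-E) from unperturbed bone marrow (BM). The others were stress populations of the spleen: multipotent cells (MPP), stress BFU-E and erythroid progenitors of the colony-forming stage (CFU-E), all taken at day 8 from lethally irradiated mice that had received whole bone marrow. Library names give the sort marker: Sca-positive for MPP, Sca-negative for both BFU-E populations and CD9-negative for CFU-E. ATAC-seq, which maps open chromatin, was run on the BFU-E of both tissues. The labels do not say that replicate libraries came from separate animals, so p-values measure only the spread between these libraries, which may be technical.

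Ribosomes are assembled in the nucleolus. RNA polymerase I copies the ribosomal DNA into one long precursor, small nucleolar RNPs (snoRNPs) guide methylation and pseudouridylation of it, and large assembly complexes cut and fold it into the small and the large subunit. Erythroid progenitors divide quickly and depend on this supply, and inherited defects in ribosome production are known for causing anaemia.

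Nearly all of these genes started in open chromatin in both BFU-E populations. The start site of 40 of the 41 genes lay in an ATAC peak of both BFU-E lists, against 88.3% of the 10166 genes tested in the spleen table. The exception was Ubtf, the upstream binding factor of RNA polymerase I. The start of its transcript kept for counting, the only one looked up, lay outside the peaks of both lists. In the stress list, peaks with scores of 706 and 707 lay beside that start. The peak with a score of 706 was annotated to the promoter of another Ubtf transcript and covered the start of that transcript. RefSeq promoters (GRCm38.p6, the build of the peak files, from 250 bases before to 50 after a start) were found for 36 of the 41 genes. The hexamer CACGTG, the E-box letters read by MYC and its relatives, stood in 11 of these 36 promoters (30.6%). It stood in 10.8% of 7831 tested genes with a promoter and in 8.16% of all 17039. The letters read the same on both strands, and 1 promoter, that of Rrn3, held 2 matches. All 12 matches lay inside peaks of both BFU-E lists. The starts of these 11 genes lay in such peaks already and the windows are short, so this adds little to the result for starts. The same share for matches in other promoters was not counted. Of the letters searched, CACGTG had the widest gap between the set and tested genes in percentage points, and its places are shown for that reason. Each line gives 30 bases, 5′ to 3′ on the strand of the gene, with the hexamer in capitals.

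Rrn3, chr16:13780472-13780501, plus strand: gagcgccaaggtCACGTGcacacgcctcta
Rrn3, chr16:13780639-13780668, plus strand: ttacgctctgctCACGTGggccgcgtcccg
Mybbp1a, chr11:72441347-72441376, plus strand: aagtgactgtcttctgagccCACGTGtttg
Ltv1, chr10:13193092-13193121, minus strand: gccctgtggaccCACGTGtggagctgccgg
Tsr1, chr11:74898092-74898121, plus strand: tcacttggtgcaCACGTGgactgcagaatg
Utp4, chr8:106893643-106893672, plus strand: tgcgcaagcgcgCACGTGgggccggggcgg
Utp18, chr11:93885769-93885798, minus strand: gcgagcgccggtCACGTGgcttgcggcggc
Utp20, chr10:88826765-88826794, minus strand: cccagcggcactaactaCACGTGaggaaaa
Wdr43, chr17:71616220-71616249, plus strand: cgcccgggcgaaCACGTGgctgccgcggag
Nop2, chr6:125131811-125131840, plus strand: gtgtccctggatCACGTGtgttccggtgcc
Nmd3, chr3:69721929-69721958, plus strand: cgccccttgctaCACGTGtattctttgacc
Pes1, chr11:3963965-3963994, plus strand: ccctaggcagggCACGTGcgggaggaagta

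The genes with these letters came from 3 of the role groups: polymerase I transcription (Rrn3, Mybbp1a), the small subunit (Ltv1, Tsr1, Utp4, Utp18, Utp20, Wdr43) and the large subunit (Nop2, Nmd3, Pes1). No match was found in the windows of the snoRNP genes or of the nucleolar chaperone and helicase genes. Rrs1, Npm1, Fbl, Bop1 and Rrp12 had no window. These groups are small beside a share of 10.8% of tested genes, so no difference between roles can be read from this. Other letters were searched on both strands. The ETS-type letters CCGGAAGT stood in 25% of the promoters of the set, against 9.90% of tested genes. The GC box GGGCGG stood in 75% against 67.9%, and the GATA letters GATAA in 2.78% against 15.1%. AANATGGC stood in 5.56% against 10.1%, and the consensus of NRF1 in 0 of 36 against 2.41%. A match is a description of the letters and not evidence of binding.

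Per gene length, the set spanned a wide range of RNA levels. On the deposited RPKM scale (reads per unit of gene length and of library depth), averaged over the 3 spleen populations, Ncl stood highest at 335. Ncl encodes nucleolin, an abundant nucleolar RNA-binding protein. Npm1, the nucleolar chaperone nucleophosmin, followed at 156, the box C/D protein gene Nop58 at 109, and the RNA helicase gene Ddx21 at 99.4. The lowest were Nip7 at 8.92, Ddx18 at 7.65 and Fbl at 3.99 RPKM. Fbl encodes fibrillarin, the methylase of the box C/D snoRNPs. Its transcript has a copy elsewhere in the genome with 99.4% identity over 97.3% of its length, and Ddx18 has one with 99.0% over 99.6%. In all, 8 genes have a copy with at least 90% identity over 50% of the transcript (Ddx18, Fbl, Mrto4, Nhp2, Nop10, Npm1, Pes1, Rrs1). The copies of Nhp2 (93.4% over 58.3%) and Nop10 (90.6% over 74.9%) are less alike. How reads were divided between copies is not stated, so the counts of these 8 genes are uncertain. Of Tsr1, 32.3% of the exon bases lie under Srr on the opposite strand, and the counting strand is not stated.

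Ncl alone carried 39.6% to 42.7% of the counts of the set in the spleen libraries and 37.6% to 51.6% in the BM libraries. Of the 41 genes, 7 also carry snoRNA genes within them, 21 in all, with 5 in Nop56 and 4 in Nop58.

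As a share of all counts of a library, the 41 genes together took 1.02% to 1.11% in MPP, 1.07% to 1.14% in stress BFU-E and 1.49% to 1.58% in CFU-E. The CFU-E libraries lay above the others, and the MPP and BFU-E libraries overlapped. Reads on Rn45s, the gene of the rRNA precursor made by RNA polymerase I, took 16.03% to 22.6% of counts in MPP. They took 10.6% to 11.4% in BFU-E and 10.3% to 12.9% in CFU-E. Mature rRNA is cut from this precursor, so these counts do not separate precursor from mature rRNA and do not measure its synthesis. With Rn45s and other non-coding RNAs left out of the total, the set took 1.28% to 1.34% in MPP, 1.204% to 1.29% in BFU-E and 1.72% to 1.77% in CFU-E. In BM BFU-E the share without these RNAs was 1.00% to 1.31%, and Rn45s took 8.01% to 15.2%.

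**Figure D1:**
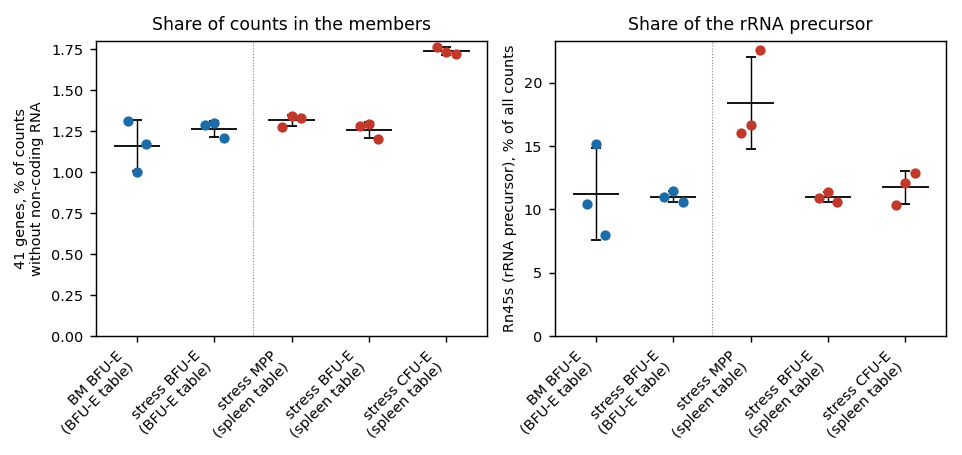
Left, percent of each library's counts on the 41 genes, with non-coding RNA left out of the total. Right, percent of all counts on Rn45s, the gene of the rRNA precursor, where mature rRNA is not told apart. Points are libraries, long bars are means and error bars SD over 3 libraries; the CFU-E libraries lie at 1.72% to 1.77%, above all others, while Rn45s is highest in MPP.

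From stress BFU-E to CFU-E the set rose. With edgeR (quasi-likelihood test, Benjamini-Hochberg adjustment over 10166 genes, threshold 0.05), 25 of the 41 genes rose and 0 fell, where 9.17% of all tested genes rose. All 41 had a log2 fold change above 0, as 49.8% of all genes had, with a median of 0.50 and a range from 0.12 (Ubtf) to 0.99 (Wdr12), against a median of 0.00 over all genes. In 33 of the 41 genes every CFU-E library lay above every BFU-E library, where 18.2% of all genes did. An unadjusted p under 0.05 was found for 34 genes, against 31.8% of all. The rises were moderate in size and spread over every role group. Among the 32 genes with neither copies elsewhere nor the overlap seen in Tsr1, 21 rose, with a median of 0.49. In bulk RNA, fewer cells of a type and less RNA per cell cannot be told apart.

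**Figure D2:**
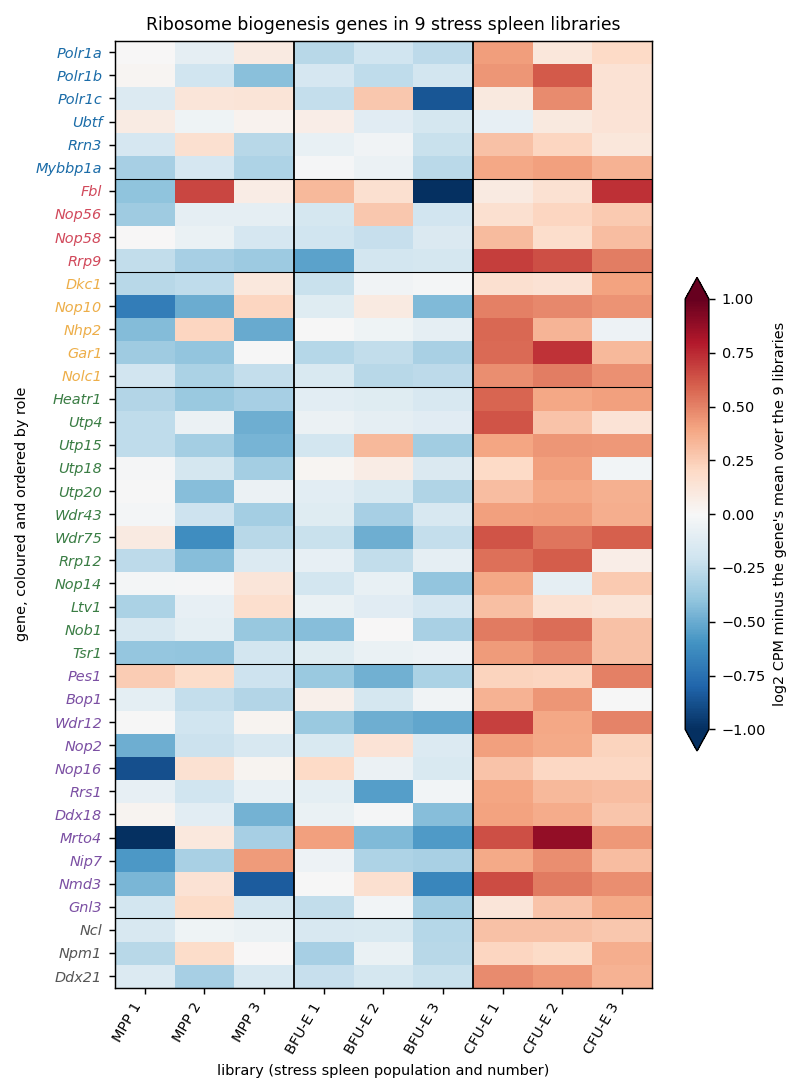
Each row is 1 gene and each column 1 stress spleen library; colour is log2 CPM minus the gene's mean over the 9 libraries, on a scale from −1 to 1. The 3 CFU-E columns are mostly red, and MPP and BFU-E columns are mixed; Fbl, Polr1c and Mrto4 are among the rows that vary within a population.

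Transcription of ribosomal DNA comes first. Polr1a encodes the largest subunit of RNA polymerase I and Polr1b the second largest. In CPM (counts brought to the same total in each library, after TMM scaling), Polr1a stood at 176, 186 and 178 in BFU-E libraries 1 to 3 and at 284, 231 and 245 in CFU-E. All CFU-E libraries were higher, with a log2 fold change of 0.50 (SE 0.11, edgeR adjusted p = 0.00214). Polr1b stood at 97.2, 91.3 and 96.0 CPM in BFU-E and at 148, 167 and 120 in CFU-E, a log2 fold change of 0.62 (SE 0.15, edgeR adjusted p = 0.00433). Mybbp1a, a nucleolar protein gene named for its binding to MYB, stood at 674, 651 and 563 CPM and then at 887, 898 and 864 (0.49, SE 0.09, edgeR adjusted p = 0.000227). These 3 of the 6 genes in this role rose. The other members differed less: the log2 fold change was 0.45 for Polr1c, 0.31 for the initiation factor Rrn3 and 0.12 for Ubtf, with edgeR adjusted p of 0.198, 0.159 and 0.420. Ubtf stood at 469, 415 and 397 CPM in BFU-E and at 423, 479 and 492 in CFU-E, so its groups overlapped.

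The snoRNP proteins modify the precursor. In the box C/D group, 2 of 4 genes rose. Rrp9, a U3 snoRNP protein gene, stood at 50.7, 64.7 and 64.8 CPM in BFU-E and at 118, 115 and 105 in CFU-E. Its groups were well apart, with a log2 fold change of 0.91 (SE 0.16, edgeR adjusted p = 0.000199). Nop58 went from 336, 329 and 349 CPM to 481, 435 and 478 (0.46, edgeR adjusted p = 0.000829). Its partner Nop56 had a log2 fold change of 0.23 (edgeR adjusted p = 0.244), and Fbl one of 0.53 (SE 0.57, 0.582) at 2.20 to 9.65 CPM in BFU-E.

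In the box H/ACA group, whose RNPs make pseudouridine, 3 of 5 genes rose. Gar1, a core protein gene, stood at 56.6, 58.0 and 54.9 CPM in BFU-E and at 102, 114 and 86.0 in CFU-E (log2 difference 0.83, SE 0.17, edgeR adjusted p = 0.000941). Nolc1, which encodes a nucleolar chaperone of snoRNPs, stood at 440, 404 and 409 CPM and then at 675, 695 and 671. Its fold change of 0.70 on the log2 scale came with an SE of 0.08 (edgeR adjusted p = 2.26e-06). The pseudouridine synthase gene Dkc1 rose by 0.33 (edgeR adjusted p = 0.0497), close to the threshold. Nop10 (0.62, edgeR adjusted p = 0.0518) and Nhp2 (0.36, 0.153) did not pass.

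Of the 12 small subunit genes, 8 rose. Heatr1, a component of the early small subunit processome, stood at 257, 255 and 248 CPM in BFU-E and at 415, 362 and 369 in CFU-E. The log2 fold change was 0.59 (SE 0.10, edgeR adjusted p = 0.000117). Wdr75, a processome WD-repeat protein gene, stood at 60.1, 50.03 and 59.4 CPM and then at 109, 102 and 106 (0.90, SE 0.18, edgeR adjusted p = 0.000751). Wdr43, another gene of that kind, rose by 0.60, and Utp20, a large scaffold of pre-ribosomes, by 0.53. Nob1, the endonuclease that makes the final cut of the small subunit RNA, stood at 45.9, 61.7 and 49.1 CPM in BFU-E and at 88.3, 90.7 and 75.3 in CFU-E (0.70, SE 0.18, edgeR adjusted p = 0.00591). Rrp12 rose by 0.56, Tsr1 by 0.48 and Nop14 by 0.41. Utp4 (0.45), Utp15 (0.46), Utp18 (0.22) and the assembly factor Ltv1 (0.31) did not pass, with edgeR adjusted p from 0.0689 (Utp15) to 0.322 (Utp18).

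Of the 11 large subunit genes, 6 rose. Pes1, Bop1 and Wdr12 encode the 3 proteins of the PeBoW complex, which processes the large subunit precursor. Wdr12 stood at 58.5, 53.9 and 52.7 CPM in BFU-E and at 122, 99.2 and 107 in CFU-E, the largest fold change of the set (0.99, SE 0.15, edgeR adjusted p = 6.11e-05). Pes1 went from 61.9, 57.5 and 64.4 CPM to 93.5, 93.0 and 114 (0.71, SE 0.16, edgeR adjusted p = 0.00290). Bop1 stood at 115, 98.1 and 108 CPM and then at 141, 150 and 111, groups that overlapped (0.32, edgeR adjusted p = 0.114). Of the complex, 2 genes thus passed and 1 did not; whether the 3 differ from each other was not tested.

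The other called genes of this role were Nmd3, the export adaptor of the large subunit (0.67, edgeR adjusted p = 0.0454), Rrs1 (0.55, 0.0102), the GTPase gene Gnl3, also known as nucleostemin (0.46, 0.0116), and the RNA methylase gene Nop2 (0.38, 0.0356). Mrto4 had a log2 fold change of 0.80 with an SE of 0.31 (edgeR adjusted p = 0.0811), at 33.7, 18.6 and 17.2 CPM in BFU-E and 39.8, 46.7 and 34.4 in CFU-E. Nip7 (0.61), Ddx18 (0.51) and Nop16 (0.23) did not pass, at edgeR adjusted p of 0.0581, 0.133 and 0.495.

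The genes of the abundant nucleolar proteins rose as well. Ncl stood at 4475, 4509 and 4114 CPM in BFU-E and at 6141, 6126 and 6033 in CFU-E (log2 difference 0.48, SE 0.05, edgeR adjusted p = 1.03e-07). Ddx21, a helicase of rRNA synthesis and processing, went from 716, 746 and 721 CPM to 1168, 1134 and 1069 (0.63, SE 0.08, edgeR adjusted p = 3.41e-06). Npm1 rose by 0.48 (SE 0.11, edgeR adjusted p = 0.00374). All 3 genes of this group rose.

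Leaving out single libraries left 20 to 28 genes called, with the lowest count without BFU-E library 3. In every such fit 18 of the 25 remained called. Dkc1, Gnl3, Nmd3, Nop14, Nop2, Rrp12 and Rrs1 lost the call in at least 1 of them. Dkc1 lost it whichever BFU-E or CFU-E library was left out, at edgeR adjusted p from 0.0574 to 0.202, and Nmd3 in most of these fits. Rrp12 lost it only without CFU-E library 2, and Rrs1 only without BFU-E library 2.

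The step from MPP to BFU-E looked different. Of the 41 genes 0 passed edgeR in either direction, where 4.13% of all genes did, and DESeq2 also called 0, where it called 6.09%. The unadjusted p was under 0.05 for 4, against 15.8% of all genes. Every BFU-E library lay above every MPP library in 3 genes (10.5% of all genes) and below in 4 (10.8%). Above 0 were 19 genes (49.8% of all genes) and below 0 were 22, with a median log2 fold change of −0.02. The lowest value was that of Pes1 (−0.48, SE 0.16, edgeR adjusted p = 0.112), which stood at 95.7, 91.1 and 69.5 CPM in MPP and lower in all BFU-E libraries. Wdr12 followed at −0.41 (edgeR adjusted p = 0.170), from 75.3, 66.0 and 77.3 CPM in MPP. Utp15 had the highest value, 0.31 (edgeR adjusted p = 0.437). Ncl differed by −0.11 (SE 0.05, edgeR adjusted p = 0.256), and its MPP libraries at 4477, 4856 and 4765 CPM overlapped those of BFU-E.

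**Figure D3:**
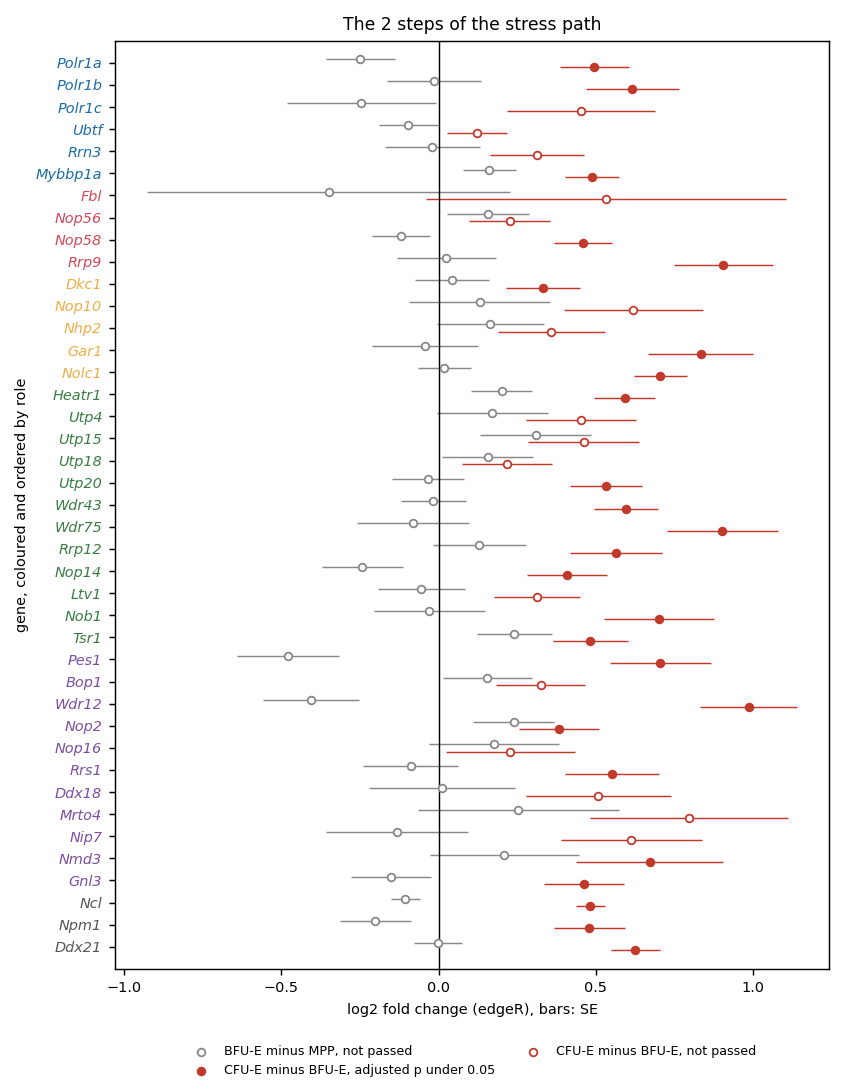
Log2 fold changes (edgeR) of the 41 genes for BFU-E against MPP in grey and CFU-E against BFU-E in red, with SE as bars; filled points have an adjusted p under 0.05. The grey points scatter around 0 from −0.48 to 0.31, and the red points all lie above 0, from 0.12 to 0.99.

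Both steps share the BFU-E libraries, so a low BFU-E value lowers one step and raises the other. A contrast of the steps, (CFU-E minus BFU-E) minus (BFU-E minus MPP), was added after the values were seen. It passed for 9 of the 41 genes, all above 0, where 2.78% of all genes passed above 0. These were Pes1, Wdr12, Polr1a, Nop58, Nolc1, Wdr43, Ncl, Npm1 and Ddx21. The largest were Wdr12 (1.39, edgeR adjusted p = 0.00174) and Pes1 (1.19, 0.0107). The count was 4 without BFU-E library 1 and 5 without library 2 or library 3.

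CFU-E against MPP sets the ends of the path side by side, without the BFU-E level, although the CFU-E and MPP libraries are those of the steps above. Here 27 genes rose and 0 fell, where 12.7% of all genes rose. All 41 values were above 0, with a median log2 fold change of 0.52. In 30 genes every CFU-E library lay above every MPP library, against 19.1% of all genes. All 5 box H/ACA genes passed, although Dkc1, Nop10 and Nhp2 lost the call without at least 1 library. Nop10 stood at 30.3, 34.7 and 56.7 CPM in MPP and at 69.4, 68.2 and 66.8 in CFU-E (log2 fold change 0.75, edgeR adjusted p = 0.0153). Mrto4, a placeholder protein gene of large subunit assembly, had the largest value (1.05, SE 0.32, edgeR adjusted p = 0.0175). Rrp9 rose by 0.93 and Nmd3 by 0.88.

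Against both earlier populations, 20 genes rose in CFU-E. Another 5 passed only against BFU-E (Gnl3, Nop14, Npm1, Pes1, Polr1a), and 7 only against MPP (Bop1, Mrto4, Nhp2, Nop10, Nop56, Utp15, Utp4). The 9 that passed neither were Ddx18, Fbl, Ltv1, Nip7, Nop16, Polr1c, Rrn3, Ubtf and Utp18. Of all genes, 9.17% rose against BFU-E and 12.7% against MPP, but the share that rose against both was not counted. Both comparisons use the same CFU-E libraries, so some overlap of their calls comes with the design. Leaving out single libraries gave 22 to 28 calls against MPP, and 19 of the 27 stayed called each time. The 8 that lost the call at least once were Bop1, Dkc1, Mrto4, Nhp2, Nop10, Nop56, Rrs1 and Utp4. Without MPP library 1 the edgeR adjusted p of Nop10 was 0.0810 and that of Mrto4 0.0837, and without CFU-E library 1 that of Nhp2 was 0.163.

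Markers of cell types moved at the same step, where 9.17% of all genes rose. In either direction, 1649 to 2340 of the 10166 genes passed when 1 library was left out. The share of all genes that fell is not given here, so the falls below have no such share beside them. The 6 tested erythroid markers all rose from BFU-E to CFU-E, and the summed level of the 9 listed went from 290 to 334 CPM up to 1711 to 1718. The 6 megakaryocyte markers all fell, from a sum of 1512 to 1786 CPM to 85.6 to 106. Of the 9 tested myeloid and macrophage markers 5 fell, from a sum of 693 to 815 CPM to 32.8 to 92.3. Of the 8 stem and multipotent markers 4 fell and 1 rose, and their sum went from 374 to 408 CPM to 102 to 136. Lymphoid markers summed to 1.95 to 19.0 CPM in every spleen library, with Cd3e at 0 in all of them. Mast cell and basophil markers summed to 502 to 552 CPM in BFU-E and 288 to 402 in CFU-E. Nearly all of that was Gata2, which early progenitors also express, at 495 to 541 CPM in BFU-E and 282 to 382 in CFU-E. The other genes of that list summed to 6.36 to 20.2 CPM and 5.93 to 19.8 CPM. The part of any of these cell types in the rise of the set was not tested.

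Against MPP the markers differed as well, where 12.7% of all genes rose. In either direction, 2321 to 2785 of the 10166 genes passed when 1 library was left out. The share of all genes that fell is not given for this comparison either. All 6 tested erythroid markers rose to CFU-E, from a sum of 173 to 223 CPM in MPP. All 8 stem and multipotent markers fell, from 678 to 784 CPM, and all 6 megakaryocyte markers, from 886 to 1035 CPM. Of the 9 tested myeloid and macrophage markers 3 fell. Their sum stood at 576, 129 and 121 CPM in MPP libraries 1 to 3, so library 1 lay well above the others. Their part in the rise of the set against MPP was not tested either.

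The rest of the pathway was read from lists of 130 other genes. From BFU-E to CFU-E 46 of the 130 rose and 0 fell, where 9.17% of all genes rose. The median log2 fold change was 0.37. Among the 46 were 16 of 44 other small subunit genes and 23 of 50 other large subunit genes. The other polymerase I genes and the other snoRNP genes gave 2 of 11 each, and the RNA exosome, which trims precursors, 3 of 14. These last lists are small, so their counts are hard to set apart from the share of all genes. The lowest adjusted p belonged to Utp14a of the processome (1.14), Mdn1, the giant ATPase of large subunit assembly (0.76), and Ftsj3, an rRNA methylase gene (0.69). From MPP to BFU-E 1 of the 130 rose, the helicase gene Ddx47 (0.53, edgeR adjusted p = 0.0418), and 0 fell. Of all genes 4.13% passed in either direction at this step. CFU-E against MPP gave 60 that rose and 0 that fell, where 12.7% of all genes rose. The 60 were led by Mdn1 (0.83), Wdr18 (1.21) and Utp14a (0.89).

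Among regulators, Myc, which drives transcription of many ribosome biogenesis genes, rose from BFU-E to CFU-E by 0.87 (SE 0.10, edgeR adjusted p = 2.26e-06). From MPP to BFU-E its log2 fold change was 0.35 (edgeR adjusted p = 0.0636). Its relative Mycn went the other way from BFU-E to CFU-E, at −2.77 (edgeR adjusted p = 1.98e-09). Trp53, which encodes p53, known to respond to nucleolar stress, rose by 0.54 (edgeR adjusted p = 0.00418), while its targets Cdkn1a (−0.24) and Mdm2 (−0.14) did not pass. Of the 22 promoters that belong to genes called in CFU-E against BFU-E, 7 held CACGTG. The median log2 fold change at this step was 0.48 for the 11 genes with the letters and 0.51 for the 25 without.

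Stress BFU-E were then set against BM BFU-E, where tissue, irradiation with transplantation and a different fluorophore in the sort change together. In edgeR 0 of the 41 genes passed, where 0.112% of 10702 genes did. The log2 fold change was above 0 in 30 genes, against 50.7% of all genes, and below 0 in 11, with a median of 0.22 against 0.01 over all genes. The unadjusted p was under 0.05 for 6 genes, against 9.84% of all genes. In 12 genes every stress library lay above every BM library, where 12.8% of all genes did, and in 1, Fbl, every stress library lay below, where 9.08% did.

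The BM libraries differed from each other more than those of the spleen. The coefficient of variation of a gene of the set over 3 libraries had a median of 34.0% in BM and 7.95% in stress BFU-E. BM library 3 had 15.3% of tested genes at a count of 0, against 0.420% to 0.738% in the stress libraries. Utp15 shows this: it stood at 42.1, 44.1 and 2.03 CPM in BM libraries 1 to 3, and at 62.5, 89.5 and 56.3 in stress BFU-E. Its log2 fold change of 1.24 had an SE of 0.87 (edgeR adjusted p = 0.718).

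Heatr1 came closest to the threshold. It stood at 142, 138 and 105 CPM in BM and at 260, 260 and 252 in stress BFU-E, so the groups did not overlap (log2 fold change 1.01, SE 0.18, edgeR adjusted p = 0.136). Nmd3 stood at 18.1, 18.4 and 19.3 CPM in BM and at 53.0, 59.6 and 33.9 in stress (1.39, SE 0.42, edgeR adjusted p = 0.345). Npm1 stood at 158, 169 and 258 CPM and at 311, 378 and 325 (0.80, SE 0.22, edgeR adjusted p = 0.302), with the copies named above. With DESeq2 the count turned on how dispersion was modelled. With its default, a parametric trend, 1 of the 41 genes was called, Heatr1 (DESeq2 adjusted p = 0.000145), where 3.32% of all genes were. A local trend gave 6, where it called 6.40% of all genes: Heatr1 (DESeq2 adjusted p = 3.69e-07), Nmd3, Npm1, Nhp2, Polr1a and Ddx21, all higher in stress. A single mean dispersion gave 3 (Heatr1, Nmd3 and Polr1a), where it called 5.41% of all genes. Heatr1 alone was called by all 3 DESeq2 settings, and edgeR called none.

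All 6 polymerase I genes had values above 0, from 0.18 (Ubtf) to 0.90 (Polr1c, SE 0.58), but in 4 of them the groups overlapped, and only in Polr1a and Rrn3 did every stress library lie above every BM library. Of the 11 other polymerase I genes 5 were above 0 and 6 below, with a median log2 fold change of −0.06. The lower values included Fbl, at 27.2, 13.0 and 37.1 CPM in BM and 9.77, 8.73 and 2.24 in stress (−1.90, SE 0.85, edgeR adjusted p = 0.519), and Ltv1 (−0.62), Nop10 (−0.61) and Nob1 (−0.56), whose groups overlapped. Ncl stood at 5803, 3330 and 5320 CPM in BM and at 4532, 4587 and 4187 in stress (−0.12, SE 0.20, edgeR adjusted p = 0.906). Myeloid and macrophage markers summed to 779 to 1971 CPM in BM and 705 to 830 in stress BFU-E. All 11 tested were lower in stress, and 1 passed. Erythroid markers summed to 160 to 272 CPM in BM and 288 to 336 in stress, with 4 of 6 higher and 0 passed. All 6 tested stem and multipotent markers and all 5 mast cell and basophil markers were lower in stress, and 0 passed. Of the 6 megakaryocyte markers 3 were higher and 3 lower. The part of any of these cell types in these values was not tested. Of the 130 other pathway genes 0 passed, where 0.112% of all genes did. In 84 of them the value was above 0, against 50.7% of all genes, with a median of 0.23.

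**Figure D4:**
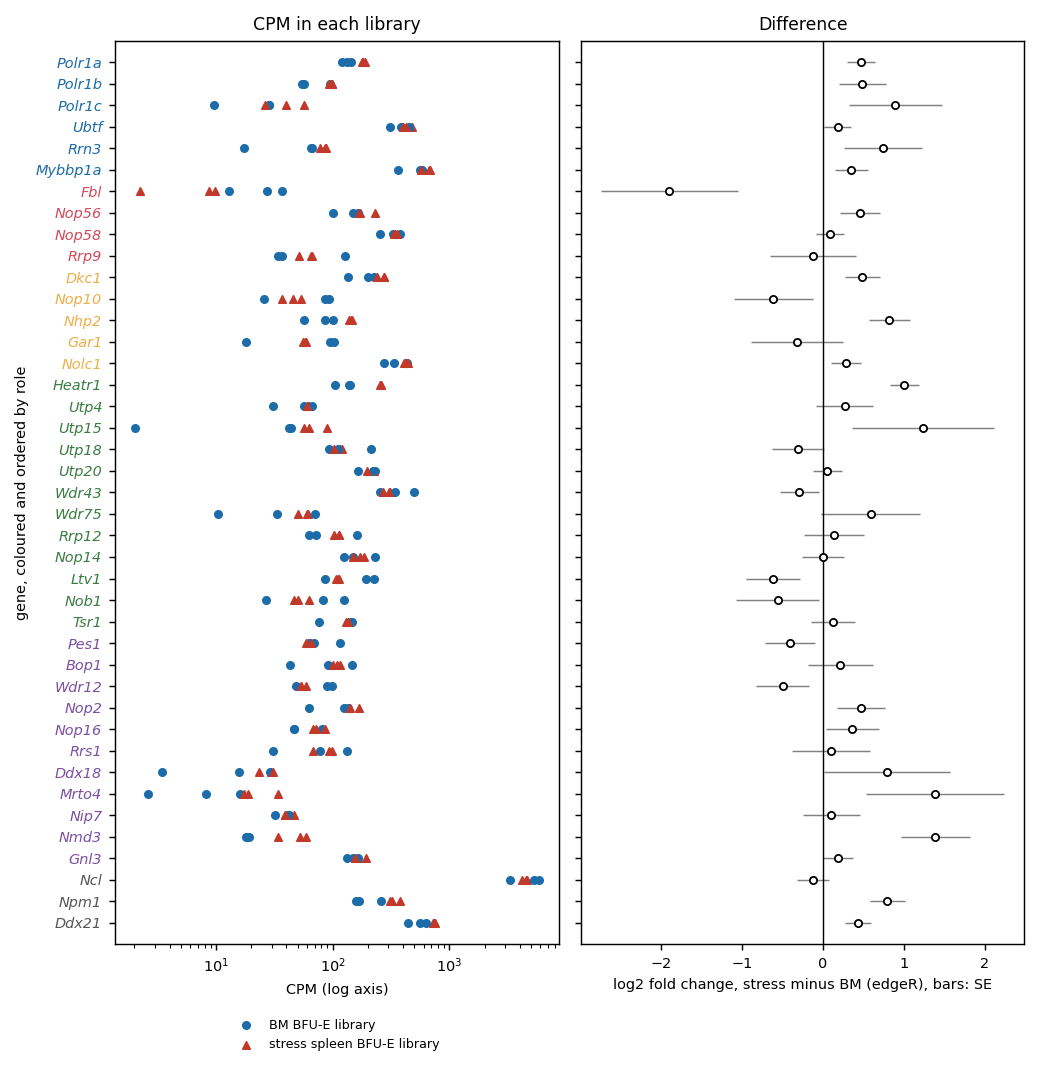
Left, CPM of the 41 genes in each BM library (circles) and each stress BFU-E library (triangles) on a log axis; right, log2 fold change of stress against BM (edgeR) with SE. The BM circles spread wider than the triangles, and no gene passed the test.

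The ATAC lists hold 1 merged list for each BFU-E population, so a difference between them has no replicate check. The BM list had 53 peaks annotated to 32 of the 41 genes. The centre of 30 of the 53 lay within 1 kb of a start, as did 11692 of all 35142 BM peaks. The stress list had 77 peaks at 34 genes, and 32 of the 77 lay within 1 kb, as did 14131 of all 61661. All 53 BM peaks overlapped a stress peak by at least 1 bp, where 95.5% of the 35142 BM peaks did. Of the 77 stress peaks 51 overlapped a BM peak (66.2%, against 55.0% of 61661). Of the 26 without a BM partner 23 (88.5%) were farther than 1 kb from a start, as were 91.4% of all 27740 stress peaks without one. The other 3 lay within 1 kb, 2 at Ubtf and 1 at Fbl. The stress list is longer as a whole, so the extra peaks of the set stand beside a larger total.

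Utp18, a small subunit gene, had the most peaks, 6 in BM and 8 in stress, most of them far from it: one stress peak without a BM partner lay at chr11:93503535-93503967, in an intron of another transcript. The peak over its start was named for Utp18 in the BM list but for its neighbour Mbtd1 in the stress list. Without start peaks, Utp18 had 5 peaks in BM and 8 in stress, all farther than 1 kb. Annotation by the nearest start gives such peaks to a gene without evidence that they act on it. The stress list had more peaks than the BM list at 17 of the 41 genes, the same number at 23 and fewer at 1, Ddx21, with 2 in BM and 1 in stress. The share of all genes with more stress peaks was not counted, and the list as a whole went from 35142 to 61661 peaks. Among genes with 2 or more additional peaks, Nmd3 had 2 peaks in BM and 4 in stress, Wdr75 2 and 4, Rrn3 1 and 3, and Mybbp1a 1 and 3. In Rrn3 both additional stress peaks lay in introns (chr16:13793516-13793744 in intron 9 and chr16:13796360-13797238 in intron 10), with scores of 492 and 898. Several genes without a peak of their own name start inside a peak annotated to a neighbour, as Polr1c in one named for Yipf3, Nop16 in one for Higd2a and Utp4 in one for Chtf8.

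**Figure D5:**
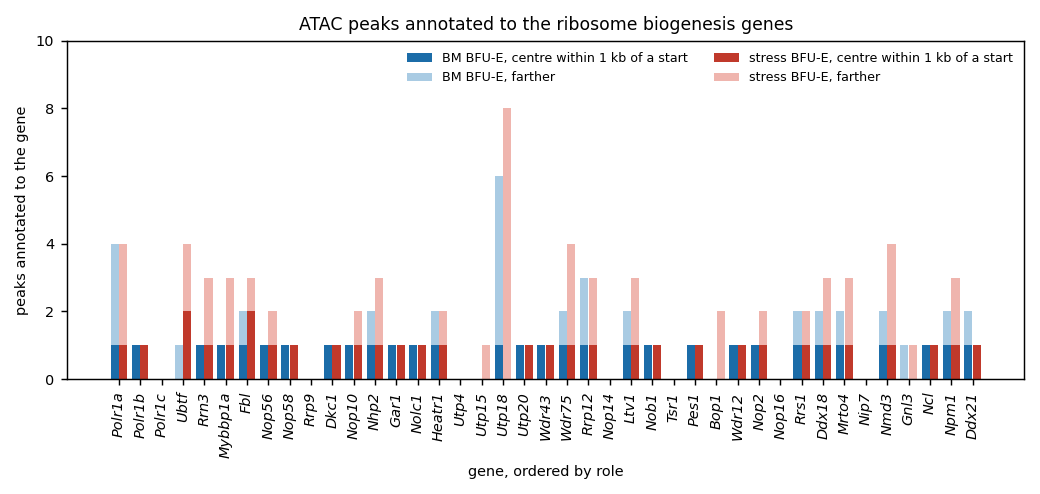
Number of ATAC peaks annotated to each of the 41 genes in the BM BFU-E list (blue) and the stress BFU-E list (red), with darker parts for peaks within 1 kb of a start. Most genes have 1 start peak in both lists, and the additional stress peaks lie mostly farther away.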

How the data were processed

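The 41 genes and the pathway lists were chosen with earlier results of these data known. The tools named for the upstream work, per the submitters' processing notes, are HOMER 4.8, STAR 2.6.0b-1, DESeq2 and Bowtie2 2.3.4.2, on mm10. The authors' deposited count tables hold raw counts per gene, with 1 transcript kept per gene, and the table of both BFU-E populations only genes the authors had kept. The deposited RPKM values were scaled by the authors to gene length and library size. BM columns of the 12-library RPKM table did not follow the counts (2.09% of genes in BM library 1, against 95.7% in the BFU-E table), so BM levels come from the BFU-E table. The deposited peak lists give the authors' score per peak, from 415 to 1000; the peak caller is not given in the sources used here.

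Counts were tested with edgeR 4.0.16 (TMM factors, quasi-likelihood F test) in R 4.3.3, with Benjamini-Hochberg adjustment. The spleen populations were fitted together on genes with a mean of at least 50 counts over 9 libraries. Totals ran from 5937778 to 13197159 counts per library. SE is the log2 fold change divided by the square root of F, an approximation. DESeq2 1.42.0 was an alternative. In the BFU-E table the fit of its default parametric trend converged or failed with the number of compute threads. A local trend was set there, and the parametric trend was also fitted by direct maximisation of its likelihood. Copies were sought with minimap2 2.31 (at least 90% identity over 50% of the transcript). Repeated peak entries were merged. Named genes are the members, by role, and up to 3 genes per direction of the other pathway lists with the lowest adjusted p. The fits were tested on simulated data.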

Additional observations from a re-analysis of the deposited data

How the results depend on the processing

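For stress against BM BFU-E, 0 genes of the set were called in edgeR under every setting run, and 0 when any library was left out, but DESeq2 called 6 with a local trend, 3 with a mean dispersion and 1 with the parametric trend; the form of the dispersion was chosen after seeing the data. Over all genes edgeR called 12 in this comparison, DESeq2 685, 579 and 355, the fit with the replicate block 3, and fits without 1 library 0 to 27. For BFU-E against MPP the set stayed at 0 (0 to 0 without 1 library), while the count over all genes went from 420 to 668 without a filter on low counts and to 225 to 458 without 1 library. With the replicate block 25 genes of the set rose from BFU-E to CFU-E and 30 from MPP to CFU-E, and 0 in the other comparisons. Without 1 library these counts were 20 to 28 and 22 to 28, and the contrast of the steps gave 4 to 10, against 9. No called gene changed direction in any setting, and Nhp2 lost its call against MPP in the fit of only those populations (adjusted p = 0.0534). The share of counts in the set, 1.07% in MPP, 1.12% in stress BFU-E and 1.53% in CFU-E, was 1.317%, 1.259% and 1.74% without non-coding RNA. Its means without 1 library were 0.948% to 1.105% in BM BFU-E, 1.105% to 1.139% in stress BFU-E, 1.505% to 1.547% in CFU-E and 1.044% to 1.086% in MPP. Genes with a promoter peak numbered 15 (BM) and 19 (stress) by the annotation word, and 30 and 30 by a centre within 1 kb of the start. With a score of at least 540, 47 and 71 peaks were left, and the same 40 starts lay in peaks. As a check of pairing, same-numbered libraries correlated in their deviations at −0.03 to −0.02 between BM and stress BFU-E, and at 0.03 to 0.08, 0.03 to 0.13 and 0.02 to 0.10 in the spleen comparisons (BFU-E with MPP, CFU-E with BFU-E, CFU-E with MPP). Of 6 libraries each, 0, 6, 5 and 5 correlated best with their own number, a hint of pairing in the spleen comparisons. Library names also join the word spleen to that number, but no label says that a number stands for 1 animal. Since not every pair was over 0.1, the libraries are taken to share only a number. The main fits leave the number out, and the fit with the replicate block is given above.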
